A study of Mus musculus with 4 samples.

Results

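The genes described here are 10 that build the MHC class I presentation machinery, taken by symbol from a deposited FPKM table of 21881 genes: the class I heavy chains H2-K1 and H2-D1, their light chain B2m, the peptide transporter Tap1 and Tap2, the loading factor Tapbp, the immunoproteasome subunits Psmb8, Psmb9 and Psmb10, and the regulator Nlrc5. All 10 symbols were found. All 10 also averaged 1 FPKM or more over the 4 libraries, the condition for being tested, which 11346 genes met. FPKM is a count of sequenced fragments scaled by transcript length and library size.

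Messenger RNA came from immortalised mesenchymal stem cell lines of C57BL/6 mice, fibroblast-like cells of adult bone marrow. The lines, clone 12 and clone 6, each grew from a single cell, and in both the Dicer gene carries the f/f alleles but is unrecombined, so Dicer is intact in every library. Each line was infected with a puromycin-resistant pMMP-puro retrovirus carrying Flag-HA-NR6A1 or with the same virus without an insert (vector). This gave 2 NR6A1 libraries and 2 vector libraries, 1 of each kind per clone. NR6A1 is an orphan nuclear receptor known mainly as a repressor in the embryo and germ line. The series title places Nr6a1 among genes that let-7 holds down in adult fibroblasts. No further culture of either line is named, so a p-value here measures how alike the 4 libraries were after allowing for clone and virus, and not the spread between repeat cultures.

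Nucleated cells use this machinery to show samples of their own proteins to CD8+ T cells. The proteasome cuts proteins into peptides, the TAP transporter carries the peptides into the endoplasmic reticulum, tapasin and its partners load them onto a heavy chain paired with beta-2-microglobulin, and the filled complex moves to the cell surface. Interferons raise most of these genes, and they exchange the catalytic subunits of the constitutive proteasome for the immunoproteasome subunits. In marrow stromal cells class I is present without inflammation, while class II normally appears after interferon gamma.

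The targeted gene checked the virus labels, though not the clone labels: Nr6a1 stood at 598 and 783 FPKM in the NR6A1 libraries of clone 12 and clone 6, against 2.80 and 4.18 FPKM in the vector libraries. Low FPKM values rise in steps of 1 read, and the step size gave estimated depths of 20.5 M (NR6A1, clone 12), 21.1 M (NR6A1, clone 6), 22.9 M (vector, clone 12) and 24.3 M (vector, clone 6) mapped reads (M, 1e6). The steps were blurred: at these depths 42.6% to 45.2% of low values came within 0.1 of a whole number of reads. For a depth fixed in advance chance gives 20%. These depths were picked as the best fit to the same values, so the share by chance would be higher. Markers of blood cells were nearly absent: 12 of the 13 measured stayed below 1 FPKM in every library, Cd3e and Nkg7 were listed at 0 throughout, and the summed level of the 13 was 2.47 to 2.94 FPKM. The exception was Cd68, at 1.12 to 2.16 FPKM. The 5 endothelial markers summed to at most 0.179 FPKM. Of 10 mesenchymal markers 9 were tested, with Vim between 1964 and 2404 FPKM, but Thy1, a surface antigen often used to define these cells, was at 0.0297 FPKM in the vector library of clone 6 and listed at 0 in the other libraries.

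The letters just before the transcription starts are shown for the heavy chains, the light chain and Tap1 with Psmb9, because these genes are known to share control elements and because Tap1 and Psmb9 are transcribed away from each other out of the same short stretch. The sequences come from RefSeq on GRCm38.p6, a later assembly than the mm9 build of the files, and 8 of the 10 genes had an entry (Tap2 and Nlrc5 did not). Capitals mark GGGGATTCC (letters bound by NF-kB, known in class I promoters as part of enhancer A), GAAANNGAA and GAANNGAAA (letters of interferon-stimulated elements) and CCAAT, on either strand. H2-K1 lies on the minus strand at chr17:34000348-34000597, H2-D1 on the plus strand at chr17:35262844-35263093 and B2m on the plus strand at chr2:122147437-122147686. Each line is 5′ to 3′ and ends at the last base before the start. The Tap1-Psmb9 line is the plus strand at chr17:34187331-34187555, the 225 bases between the 2 starts, and reads towards Tap1.
H2-K1: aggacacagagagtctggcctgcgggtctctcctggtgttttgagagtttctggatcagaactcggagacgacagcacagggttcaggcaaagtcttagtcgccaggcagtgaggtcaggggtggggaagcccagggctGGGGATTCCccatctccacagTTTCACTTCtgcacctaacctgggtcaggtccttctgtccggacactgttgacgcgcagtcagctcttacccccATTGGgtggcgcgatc
H2-D1: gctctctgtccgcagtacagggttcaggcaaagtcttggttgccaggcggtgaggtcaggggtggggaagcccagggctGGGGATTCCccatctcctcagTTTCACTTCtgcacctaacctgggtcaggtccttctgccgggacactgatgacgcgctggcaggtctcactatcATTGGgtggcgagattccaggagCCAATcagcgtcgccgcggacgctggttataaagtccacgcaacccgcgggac
B2m: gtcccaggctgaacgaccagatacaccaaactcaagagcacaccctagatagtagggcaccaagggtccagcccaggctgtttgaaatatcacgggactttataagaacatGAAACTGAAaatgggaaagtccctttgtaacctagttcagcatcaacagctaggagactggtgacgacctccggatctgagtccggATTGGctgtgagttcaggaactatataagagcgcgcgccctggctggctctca
Tap1-Psmb9: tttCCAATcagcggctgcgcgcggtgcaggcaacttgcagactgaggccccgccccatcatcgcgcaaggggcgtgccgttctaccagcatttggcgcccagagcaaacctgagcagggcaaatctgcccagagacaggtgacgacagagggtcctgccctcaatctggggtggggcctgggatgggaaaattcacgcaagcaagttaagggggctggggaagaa

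The stretches before H2-K1 and H2-D1 could be aligned over 177 positions, of which 161 (91.0%) were identical. In both, GGGGATTCC is followed by a match to GAANNGAAA, at 111 and 90 bases before the start of H2-K1 and at 171 and 150 bases before that of H2-D1. Among all 27025 RefSeq promoters of 300 bases, 250 before the start and 50 after it, GGGGATTCC was in 70 (0.259%) and GAANNGAAA in 7.56%. GAAANNGAA was in 8.57% and, of the 8 genes, in B2m alone. TTCNNNGAA, letters of the gamma-activated element, was in 8.47% and, of the 8 genes, in Psmb8 alone. CCAAT was in 6 of the 8 genes and in 37.9% of all promoters, and TGACG, part of the element bound by CREB and ATF factors, was in 5 of the 8 and in 21.0%. TCAAGGTCA, letters of the direct repeat that NR6A1 is known to bind, was in 0.407% of all promoters and in none of these 8 windows. Such matches describe letters and not bound sites.

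The 10 genes covered a wide range of levels. B2m was the most abundant, at 1556 and 1339.6 FPKM in the NR6A1 libraries of clone 12 and clone 6 and 1473 and 1345 FPKM in the vector libraries. The heavy chains came next, from 376 to 688 FPKM for H2-K1 and from 455 to 594 FPKM for H2-D1, and their ranges overlapped. Tapbp (72.1 to 165 FPKM), Psmb8 (46.6 to 102 FPKM), Psmb9 (34.4 to 61.0 FPKM), Tap1 (41.0 to 49.6 FPKM), Tap2 (25.95 to 49.8 FPKM) and Psmb10 (20.2 to 56.5 FPKM) formed a middle group in which each range overlapped that of the next gene. Nlrc5, the transactivator that opens class I promoters, was the least abundant at 3.85 to 10.17 FPKM. Inferred reads behind a value ran from 542 (lowest library of Psmb10) to 26000 (highest library of H2-D1). If the estimated depths hold, counting error is small beside the differences called below.

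**Figure D1:**
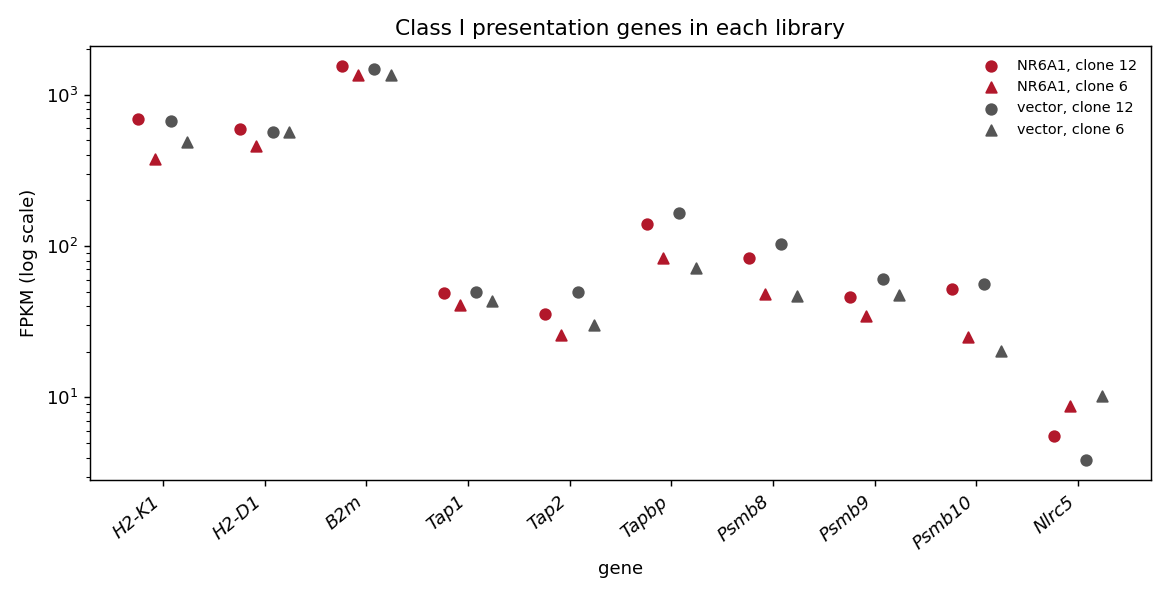
FPKM of each gene (log scale) in each of the 4 libraries, 1 point per library, red for NR6A1 and grey for vector, circles for clone 12 and triangles for clone 6. B2m and both heavy chains stand at 376 FPKM or more in every library, and Nlrc5 is the gene whose circles lie below its triangles.

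Reads of the heavy chains cannot be assigned cleanly. Of the 50-base windows in the longest coding GENCODE transcript of H2-K1, 8.79% also occur in a transcript of another gene, 6.94% in H2-D1. For H2-D1 the share was 14.3%, and the gene that shared most was H2-Q1 (7.40%). Tapbp shared 2%, Tap1 0.861% and Tap2 0.737%. B2m, Nlrc5 and the 3 immunoproteasome genes shared none. How the authors' counting split such reads is not given in the sources used here, so differences between H2-K1, H2-D1 and the other H2 chains are uncertain.

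More of the 10 genes were called between the clones than between the viruses, as over all genes tested (21.9% against 0.0353%). The fitted difference was also larger between the clones for each gene but Psmb9 (-0.43 log2 units by virus, 0.38 by clone). Of the 10 genes, 6 were higher in clone 12 (H2-K1, Tap2, Tapbp, Psmb8, Psmb9, Psmb10), 1 was lower (Nlrc5) and 3 did not pass (H2-D1, B2m, Tap1), by limma on log2(FPKM + 1) with virus as a block, at a Benjamini-Hochberg adjusted p of 0.05 over the 11346 genes. Over all genes tested 21.9% were called, 11.5% as higher and 10.5% as lower in clone 12. The median difference was 0.48 log2 units over the 10 genes and 0.04 over all genes tested. Without the variance trend 3 were called higher, and with no filter on low genes limma called no gene at all, while 4587 of all genes had an unadjusted p under 0.05. Without a virus block 4 were called higher, with Tap2 at a limma adjusted p of 0.106 and Psmb9 at 0.274. When a single library was left out, which also removes the block, 1 gene (Psmb10) was called without the NR6A1 library of clone 6 and none without any of the others, while the share of all genes called fell to between 0.361% and 7.84%, and the 10 genes kept their direction. Levels are of bulk RNA, in which fewer cells with a transcript and less of it per cell cannot be told apart.

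Psmb10, the immunoproteasome subunit MECL-1, differed most. It was at 52.3 FPKM with NR6A1 and 56.5 FPKM with vector in clone 12, against 25.2 FPKM with NR6A1 and 20.2 FPKM with vector in clone 6. Both libraries of clone 12 lay above both of clone 6, and the difference was 1.23 ± 0.13 log2 units (SE, limma adjusted p = 0.0193), or 2.35-fold.

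Psmb8, the immunoproteasome subunit LMP7, was at 82.9 FPKM with NR6A1 and 102 FPKM with vector in clone 12, against 48.1 FPKM with NR6A1 and 46.6 FPKM with vector in clone 6. The clones did not overlap, and the 2 libraries of clone 6 were nearly equal (0.95 ± 0.11 log2 units, SE, limma adjusted p = 0.0223). Psmb9, the subunit LMP2, was at 46.1 FPKM with NR6A1 and 61.0 FPKM with vector in clone 12, against 34.4 FPKM with NR6A1 and 47.7 FPKM with vector in clone 6. Here the ranges of the clones overlapped, while the difference of 0.38 ± 0.07 log2 units (limma adjusted p = 0.0396) was alike within each virus, at 0.41 in NR6A1 libraries and 0.35 in vector libraries. With quantile scaling the call was lost at a limma adjusted p of 0.0559. Leaving out a library moved the difference to 0.149 (without NR6A1 in clone 6), 0.180 (vector in clone 12), 0.577 (NR6A1 in clone 12) or 0.608 (vector in clone 6), and none of these was called.

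Tapbp encodes tapasin, which bridges the transporter and the empty heavy chain. It was at 140 FPKM with NR6A1 and 165 FPKM with vector in clone 12, against 83.1 FPKM with NR6A1 and 72.1 FPKM with vector in clone 6, with no overlap (0.96 ± 0.13 log2 units, limma adjusted p = 0.0254, 1.95-fold). Tap2 was at 35.7 FPKM with NR6A1 and 49.8 FPKM with vector in clone 12, against 25.95 FPKM with NR6A1 and 30.3 FPKM with vector in clone 6 (0.57 ± 0.10 log2 units, limma adjusted p = 0.0332), a difference that was 0.338 and not called without the vector library of clone 12. Its partner in the transporter, Tap1, was at 48.7 FPKM with NR6A1 and 49.6 FPKM with vector in clone 12, against 41.0 FPKM with NR6A1 and 43.1 FPKM with vector in clone 6. The Tap1 libraries did not overlap either, but the difference of 0.22 ± 0.07 log2 units did not pass (limma adjusted p = 0.1002). A test of Tap2 against Tap1 was not made.

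H2-K1 was at 688 FPKM with NR6A1 and 667 FPKM with vector in clone 12, against 376 FPKM with NR6A1 and 488 FPKM with vector in clone 6 (0.66 ± 0.13 log2 units, SE, limma adjusted p = 0.0422, 1.58-fold). With upper quartile scaling the call was lost at a limma adjusted p of 0.0525. H2-D1 was at 594 FPKM with NR6A1 and 569 FPKM with vector in clone 12, against 455 FPKM with NR6A1 and 565 FPKM with vector in clone 6. Its vector libraries were nearly equal between the clones, and the difference of 0.20 ± 0.12 log2 units did not pass (limma adjusted p = 0.284). B2m differed by 0.17 ± 0.08 log2 units (limma adjusted p = 0.204). Within a library, H2-K1 stood at 116% and 117% of H2-D1 in the NR6A1 and vector libraries of clone 12, against 82.5% and 86.5% in those of clone 6. The order of the heavy chains thus differed between the clones with either virus, within the limits of shared reads given above.

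Nlrc5 went the other way. It was at 5.58 FPKM with NR6A1 and 3.85 FPKM with vector in clone 12, against 8.74 FPKM with NR6A1 and 10.17 FPKM with vector in clone 6, with no overlap. The difference was -0.89 ± 0.19 log2 units (SE, limma adjusted p = 0.0468) and had the highest adjusted p of the 7 calls. With other filters and scalings its limma adjusted p was 0.0532 (mean of at least 5 FPKM), 0.0506 (upper quartile scaling) and 0.0589 (quantile scaling). Counted by libraries alone, 8 of the 10 genes were higher in both libraries of clone 12 than in both of clone 6, against 37.7% of all genes tested. Nlrc5 was lower, as were 30.3% of all genes tested.

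**Figure D2:**
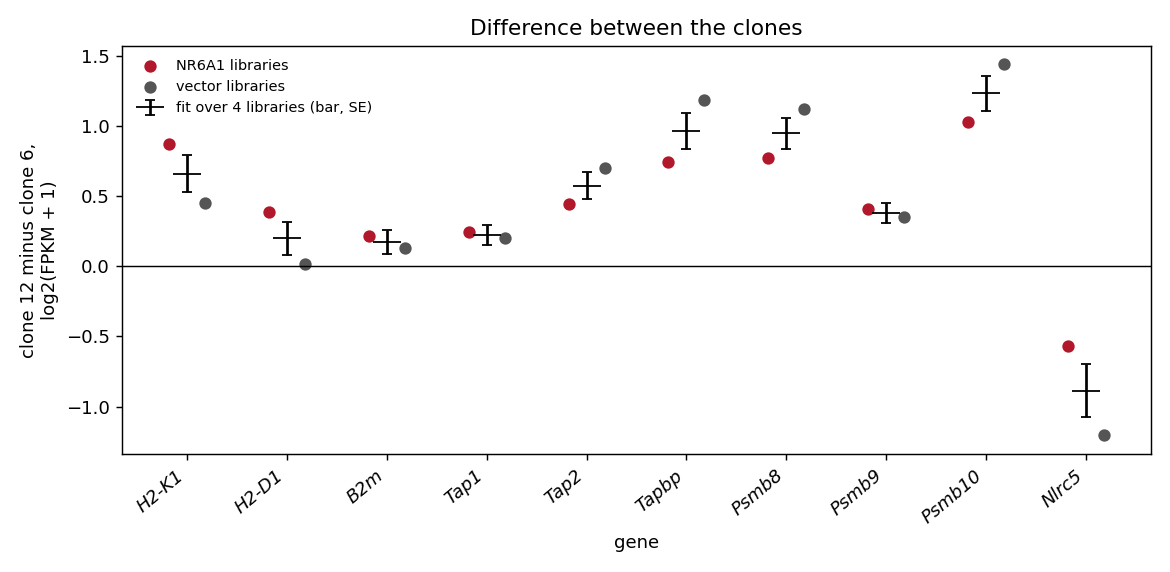
Clone 12 minus clone 6 on the log2(FPKM + 1) scale for each gene, red for the pair of NR6A1 libraries, grey for the pair of vector libraries, with black bars for the fit over 4 libraries and its SE. Psmb10 is highest at 1.23, Nlrc5 alone lies below 0 with either virus, and B2m, H2-D1 and Tap1 lie nearest to 0.

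The immunoproteasome subunits were next set against the constitutive subunits whose places they take, a ratio that does not depend on scaling between libraries. Psmb5, Psmb6 and Psmb7 were each between 195 and 317 FPKM. Psmb5 was lower in clone 12 (-0.34 ± 0.07 log2 units, limma adjusted p = 0.0456), while Psmb6 (0.11) and Psmb7 (-0.02) did not pass. Psmb8 was at 39.4% of Psmb5 with NR6A1 and 46.3% with vector in clone 12, against 17.7% with NR6A1 and 16.9% with vector in clone 6. Psmb10 was at 16.95% of Psmb7 with NR6A1 and 17.99% with vector in clone 12, against 8.05% with NR6A1 and 6.38% with vector in clone 6. Psmb9 was at 21.3% of Psmb6 with NR6A1 and 29.1% with vector in clone 12, against 17.6% with NR6A1 and 24.04% with vector in clone 6. Clone 12 thus had 2.23-fold (NR6A1) and 2.74-fold (vector) the Psmb8 ratio of clone 6 and 2.10-fold and 2.82-fold its Psmb10 ratio, while the Psmb9 ratio was 1.21-fold with either virus. The 3 subunits summed made 24.6% of the constitutive sum with NR6A1 and 29.5% with vector in clone 12, against 13.8% with NR6A1 and 14.5% with vector in clone 6. These ratios are given per library and were not tested.

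**Figure D3:**
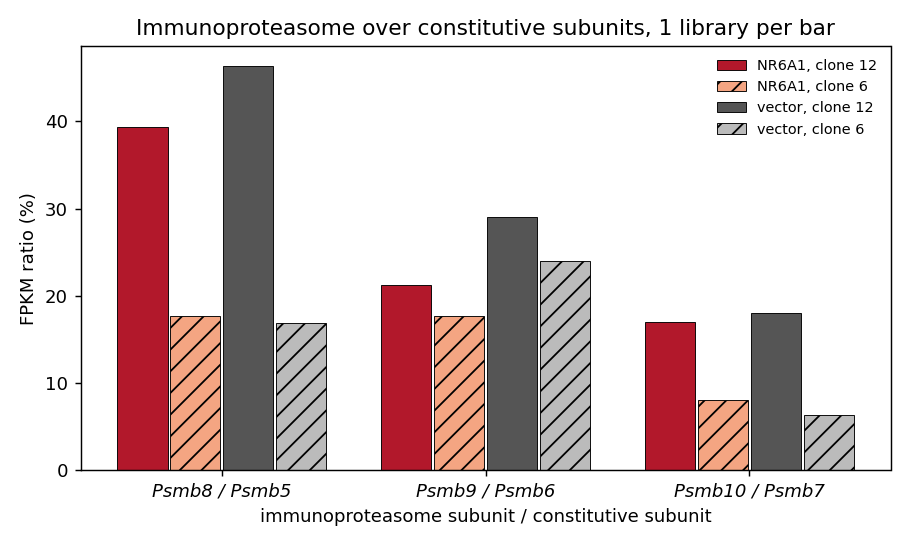
FPKM of each immunoproteasome subunit as a percent of its constitutive counterpart, 1 bar per library (no replicates within a bar). Within each virus, the plain bar of clone 12 exceeds the hatched bar of clone 6 by more than 2-fold for Psmb8 and Psmb10 and by 1.21-fold for Psmb9.

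NR6A1 gave no call in these genes. None of the 10 passed limma with clone as a block (adjusted p from 0.315 to 0.979), 2 had an unadjusted p under 0.05 (Tap2 and Psmb9), and none changed by 1.5-fold or more in either clone. Over all genes tested 0.0353% were called, 8.48% had an unadjusted p under 0.05, and 3.79% in clone 12 and 6.44% in clone 6 changed by at least 1.5-fold. The median change was -0.09 log2 units over the 10 genes and 0.00 over all genes tested. With 4 libraries the fitted changes ran from -0.43 to 0.12 log2 units and those within a clone from -0.47 (Tap2) to 0.44 (Nlrc5), both in clone 12, and a p that misses the threshold does not show that a gene was unaffected.

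Psmb9 came nearest to a call. It was at 46.1 and 34.4 FPKM in the NR6A1 libraries of clone 12 and clone 6, against 61.0 and 47.7 FPKM in the vector libraries. Both NR6A1 libraries lay below both vector libraries, as for 10.7% of all genes tested. No other of the 10 genes separated the viruses in that way, and none did so in the higher direction, as 9.68% of all genes tested did. The change was -0.43 ± 0.07 log2 units (SE, limma adjusted p = 0.315), -0.40 in clone 12 and -0.46 in clone 6. Before adjustment the limma p of Psmb9 was 0.00422 by virus and 0.00655 by clone. The adjustment depends on all genes tested, of which 0.0353% were called by virus and 21.9% by clone. The call of Psmb9 by clone alone therefore does not make its clone difference the larger or surer one. Tap2 stood at 35.7 and 25.95 FPKM in the NR6A1 libraries of clone 12 and clone 6, against 49.8 and 30.3 FPKM in the vector libraries (-0.34 ± 0.10 log2 units, limma adjusted p = 0.516). Tap1, which starts beside Psmb9, had values of -0.02 in clone 12 and -0.07 in clone 6 (limma adjusted p = 0.849). These 3 were below vector in both clones, a pattern of 29.4% of all genes tested, and none of the 10 was above vector in both clones, against 28.9% of all genes tested.

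In the other 7 genes the sign of NR6A1 minus vector differed between the clones, as for 41.1% of all genes tested. H2-K1 (0.05 in clone 12 and -0.38 in clone 6), H2-D1 (0.06 and -0.31), B2m (0.08 and -0.01) and Nlrc5 (0.44 and -0.20) were above vector in clone 12 and below it in clone 6, as were 17.9% of all genes tested. Tapbp (-0.24 in clone 12 and 0.20 in clone 6), Psmb8 (-0.30 and 0.04) and Psmb10 (-0.11 and 0.30) were below vector in clone 12 and above it in clone 6, as were 23.1%. With 1 library per clone and virus, no test of a difference between the clones could be made.

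**Figure D4:**
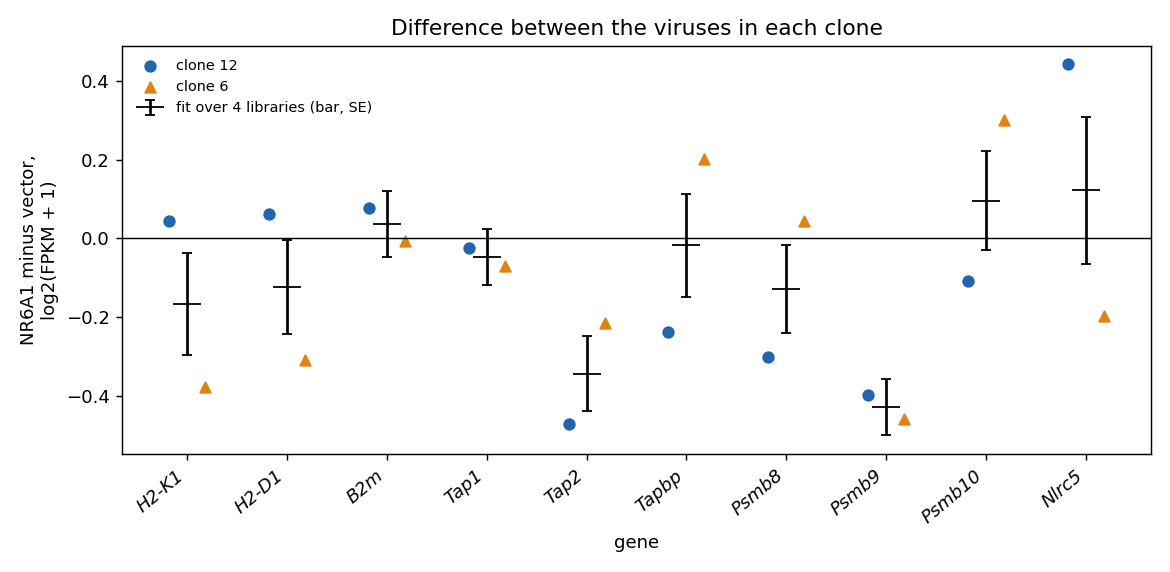
NR6A1 minus vector on the log2(FPKM + 1) scale for each gene, blue circles for clone 12 and orange triangles for clone 6 (1 pair of libraries each), with black bars for the fit over 4 libraries and its SE. Psmb9, Tap2 and Tap1 lie below 0 in both clones, and the other 7 genes lie on different sides of 0.

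The wider pathway was followed in further lists, whose members were counted in full and stand beside the 11.5% of all genes tested that were called higher and the 10.5% called lower in clone 12. Of 33 other class I and class I-like chains, 29 were measured and 19 tested, with 6 higher and 1 lower in clone 12 and 12 that did not pass. H2-T23, which encodes the nonclassical chain Qa-1, was at 38.2 FPKM with NR6A1 and 58.6 FPKM with vector in clone 12, against 14.1 FPKM with NR6A1 and 17.6 FPKM with vector in clone 6 (1.53 ± 0.10 log2 units, SE, limma adjusted p = 0.0138). Also higher were Hfe, a class I-like regulator of iron uptake (0.88), and H2-K2 (0.78), while Fcgrt, the class I-like receptor that recycles IgG, was lower (-0.64). The median of the 19 was 0.35, against 0.04 over all genes tested.

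Among 8 genes of peptide loading and trimming, 2 were higher in clone 12, 1 was lower and 5 did not pass. Erap1, the aminopeptidase that trims peptides in the endoplasmic reticulum, was at 12.3 FPKM with NR6A1 and 12.8 FPKM with vector in clone 12, against 6.37 FPKM with NR6A1 and 5.99 FPKM with vector in clone 6 (0.92 ± 0.09 log2 units, limma adjusted p = 0.0193). Tapbpl, the tapasin relative TAPBPR, was also higher (0.71), and Calr, the chaperone calreticulin that also serves other glycoproteins, was lower (-0.44). The other 20S core subunits had 4 of 11 higher in clone 12 (Psma1 0.45, Psma4 0.42, Psmb2 0.39, Psmb1 0.37) and none lower, with a median of 0.24. Of 9 proteasome activators and assembly factors, Psmg2, an assembly chaperone, was higher (0.57) and 8 did not pass, a share near the 11.5% called higher over all genes tested. Psme1 and Psme2, the interferon-induced PA28 activator genes, were named after their values were seen: they differed by 0.35 and 0.24 (limma adjusted p = 0.0933 and 0.241).

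Transcription factors of class I genes had 16 of 17 tested, 6 higher in clone 12, none lower and 10 that did not pass, with a median of 0.37. Irf1, which binds the interferon-stimulated elements of class I genes, was at 39.5 FPKM with NR6A1 and 50.5 FPKM with vector in clone 12, against 24.8 FPKM with NR6A1 and 22.03 FPKM with vector in clone 6 (0.90 ± 0.15 log2 units, limma adjusted p = 0.0322). Stat2 (0.88) and Irf2 (0.70) were also higher. Only factors that passed are named, and none passed as lower, so their shared direction was fixed by that choice. Their part in the class I differences was not tested.

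Of the interferon-induced GTPases, which act against intracellular microbes, 15 were measured and 10 tested, and 9 were called higher in clone 12. Their median difference, 2.09, was the largest of the lists. Mx2, Iigp1 and Tgtp1 were below 1 FPKM in both libraries of clone 6 and met the filter only through clone 12. The direction of these genes was thus fixed by the filter, and the count and median lean towards clone 12. GTPases that averaged below 1 FPKM were not tested. Gbp3 was at 27.4 FPKM with NR6A1 and 30.4 FPKM with vector in clone 12, against 4.96 FPKM with NR6A1 and 1.76 FPKM with vector in clone 6 (2.88 ± 0.33 log2 units, limma adjusted p = 0.0214). Gbp2 (2.30) and Igtp (2.24) were likewise higher, and Mx2 (2.19) was called within the limit just given. Of 9 genes tested for interferon ligands, receptors and signalling, 8 did not pass and Ifngr1, a chain of the interferon gamma receptor, was lower in clone 12 (-0.60). That share is near the 10.5% called lower over all genes tested. Ifng and Ifnb1, named after their values were seen, averaged below 1 FPKM and were not tested. Values this low rest on few reads, so a listed 0 does not show absence. Ifng was at 0.0432 FPKM in the vector library of clone 12 and listed at 0 elsewhere. Ifnb1 was at 0.171 FPKM with NR6A1 and 0.535 FPKM with vector in clone 12 and listed at 0 in both libraries of clone 6. The part of these levels in the class I differences was not tested.

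Most class II genes were low. Of 11 measured, 7 stayed below 1 FPKM in every library, among them the chains H2-Aa, H2-Ab1 and H2-Eb1 and the class II activator Ciita, which was at most 0.0205 FPKM. Cd74, the invariant chain, was at 4.69 FPKM with NR6A1 and 8.18 FPKM with vector in clone 12, against 0.296 FPKM with NR6A1 and 0.367 FPKM with vector in clone 6 (2.44 ± 0.21 log2 units, limma adjusted p = 0.0168). Being below 1 FPKM in clone 6, Cd74 met the filter only through clone 12. It could thus be tested only as higher there. H2-DMa, a class II peptide editor, was lower in clone 12 (-1.12). The remaining 2, named after their values were seen, were the class II editor chains H2-DMb1, at 5.68 to 8.66 FPKM, and H2-DMb2, at 1.37 to 2.35 FPKM. Mesenchymal markers also differed by clone, with 2 of the 9 tested higher (Ly6a 3.80, Cd44 0.53) and 2 lower (Col1a1 -1.30, Pdgfra -0.84) in clone 12. No gene of these lists passed between NR6A1 and vector.

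**Figure D5:**
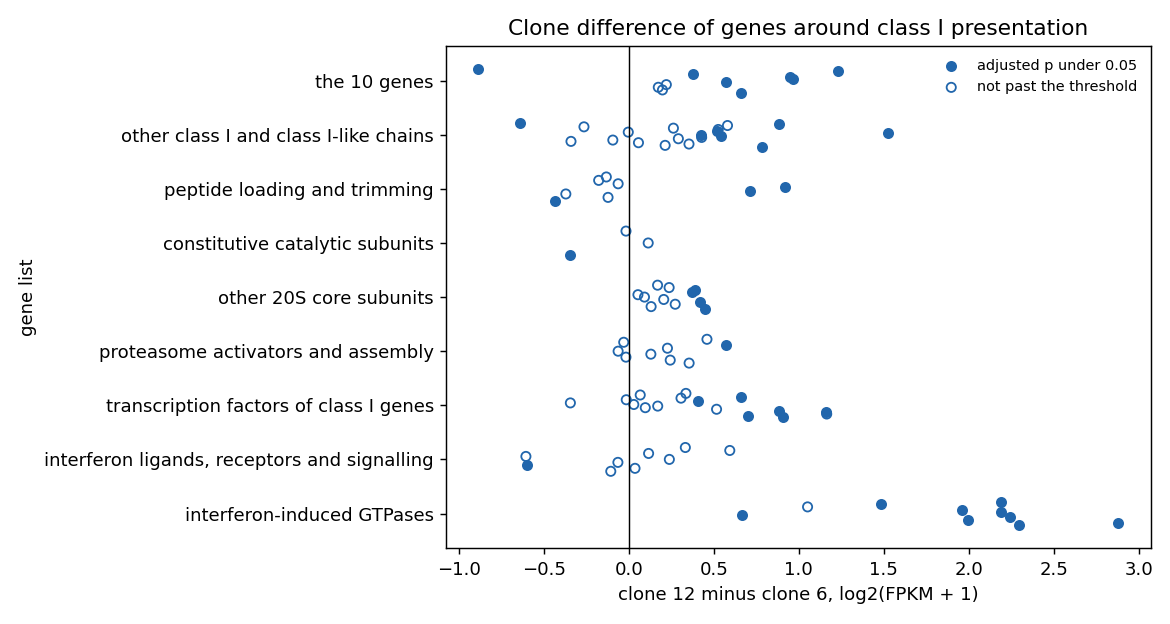
Clone 12 minus clone 6 on the log2(FPKM + 1) scale, 1 point per tested gene, grouped by list; filled points have a limma adjusted p under 0.05. The interferon-induced GTPases reach 2.88, the 10 class I presentation genes run from -0.89 to 1.23, and the constitutive catalytic subunits lie near 0 or below it.

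The genes nearest in pattern over the 4 libraries, by Euclidean distance between centred log2(FPKM + 1) profiles among 9108 other genes that averaged 5 FPKM or more, were not genes of these lists. For H2-K1 they were Acy3 (distance 0.0685), Rbm3 (0.131) and Iqcb1 (0.132). For Tap1 they were Plrg1 (0.0118), Brcc3 (0.0158) and Mrpl17 (0.0171), and for Psmb9 Stxbp3a (0.0253), Insig2 (0.0309) and Steap2 (0.0649). With 4 libraries from 2 lines, many genes lie close to any profile.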

How the data were processed

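The authors deposited FPKM values, 1 per gene symbol and library. The tools named in the submitters' processing notes are Cufflinks 1.0.3 and TopHat 1.2.0, with mm9 as the build; the annotation and any strand setting were not given in the sources used here. No read counts were used. Depth was inferred from low values of 1818 genes with 1 annotated transcript of at least 1500 bases, with 210 bases taken off the length; such steps do not give whole reads closely enough for a count test.

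Genes averaging 1 FPKM or more were tested as log2(FPKM + 1) with limma 3.58.1 in R 4.3.3 (two-sided, mean-variance trend), with virus and clone as terms and Benjamini-Hochberg adjustment over all 11346 genes. The fit left 1 residual degree of freedom and a prior of 2.9. Fold changes are on that scale, which understates changes of low genes. The clone pairs the libraries because each line received both viruses: across genes the clone difference correlated between NR6A1 and vector libraries (r = 0.628, and 0.873 without short RNA genes). The fit was tested on simulated data.

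The genes, lists and tests were chosen with earlier results of these data known. All 10 genes are described. From each further list, at most 4 genes past the threshold with the largest changes are named (lists of up to 4 whole), otherwise the most abundant, and for H2-K1, Tap1 and Psmb9 the 3 nearest profiles. A gene that this rule would also name is not reported here. Transcripts came from GENCODE M21 and promoters from RefSeq. Alternatives were other pseudocounts, filters, scalings and priors, no short RNA genes, no block, and each library left out.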

Additional observations from a re-analysis of the deposited data

Results flagged for a closer look

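In 7 of the 10 genes the NR6A1 and vector libraries differed in opposite directions in the clones, and this difference between the clones was not tested. The change in clone 12 minus that in clone 6 was 0.423 for H2-K1, 0.370 for H2-D1, 0.0846 for B2m and 0.638 for Nlrc5 (log2). It was -0.438 for Tapbp, -0.345 for Psmb8 and -0.410 for Psmb10. Opposite directions were found in 41.1% of all genes tested.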

How the results depend on the processing

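None of the 10 genes changed direction in either comparison under the 10 alternatives with 4 libraries. The count of the 10 called higher in clone 12 (6) became 0 with no filter, where limma called 0 genes in either comparison (1468 for NR6A1 and 4587 between clones at an unadjusted p under 0.05), 3 with no variance trend, and 5 with upper quartile or with quantile scaling; the cause was not tested. Nlrc5 was called lower (limma adjusted p = 0.0468) but not with no filter (0.305), a mean of 5 FPKM (0.0532), upper quartile scaling (0.0506), quantile scaling (0.0589) or no trend (0.0661). Genes called between clones (2490) became 1581 with no trend. The median clone difference over the 10 (0.48) became 0.432 with a pseudocount of 5, 0.441 with upper quartile scaling and 0.431 with quantile scaling. Genes called for NR6A1 (4) became 7 with a pseudocount of 5, 38 with a robust prior and 51 without short RNA genes, none of them among the 10. Without the replicate block limma called 4 genes for NR6A1 and 1993 between clones, and of the 10 it lost Tap2 and Psmb9. With 1 library left out there is no block, and the lone library is assumed to vary like the others. Then limma called 0 genes for NR6A1 in all 4 such fits (96 to 286 at an unadjusted p under 0.05), 41 to 889 between clones, and 0 to 1 of the 10 as higher in clone 12. The median over the 10 ran from 0.283 to 0.644 between clones and from -0.496 to 0.109 for NR6A1.

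Between clones with 1 library left out, single genes ran from 0.471 to 0.849 (H2-K1), 0.0430 to 0.352 (H2-D1), 0.134 to 0.212 (B2m), 0.186 to 0.255 (Tap1), 0.338 to 0.808 (Tap2), 0.845 to 1.08 (Tapbp), 0.795 to 1.10 (Psmb8), 0.149 to 0.608 (Psmb9), 1.08 to 1.38 (Psmb10) and -1.11 to -0.665 (Nlrc5). For NR6A1 with 1 library left out, single genes ran from -0.0718 to 0.144 (B2m), -0.316 to 0.0672 (H2-D1), -0.602 to 0.269 (H2-K1), -0.480 to 0.724 (Nlrc5), -0.623 to 0.814 (Psmb10), -0.687 to 0.431 (Psmb8), -0.168 to 0.0745 (Tap1), -0.693 to 0.0068 (Tap2) and -0.609 to 0.574 (Tapbp), each crossing 0. Psmb9 stayed below 0 (-0.633 to -0.224). The lowest value of the 10 genes stood for 542 inferred reads, a number that rests on the estimated depths and on annotated transcript lengths.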

Other observations

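By the RefSeq order of chromosome 17, Tapbp, H2-K1, Psmb9, Tap1, Psmb8, Tap2 and H2-D1 lie in that order within 1 stretch, the mouse MHC, while B2m lies on chromosome 2 and Psmb10 and Nlrc5 on chromosome 8. The other protein-coding genes of that stretch, without H2 chains, were gathered after the values were seen. Of 35 tested, 2 were higher and 4 lower in clone 12 and 29 did not pass, where 11.5% of all genes tested were called higher and 10.5% lower. The median difference of the 35 was -0.02, against 0.04 over all genes tested. For NR6A1, 18 of the 35 were below vector in clone 12 and above it in clone 6, against 23.1% of all genes tested. None had the opposite pattern, against 17.9% of all genes tested. All these signs come from the same 4 libraries, so the genes are not independent repeats of the pattern.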
